A study of Mus musculus with 3 samples.

Results

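The cells described here are the hypertrophic chondrocytes of a healing fracture, the enlarged cartilage cells that make type X collagen (Col10a1). They were chosen from 3 droplet single-cell RNA libraries of mouse femur callus, 1 library per treatment. A barcode was kept when it had at least 500 detected genes and at most 10% of its unique molecular identifiers (UMIs, counts of single transcripts) in mitochondrial genes. A kept barcode was taken when Col2a1, the main collagen of cartilage, held at least 1% of its UMIs and outnumbered Col1a1, the main collagen of bone. Col10a1 had to hold at least 0.5%, and the late genes Mmp13, Bglap, Bglap2, Ifitm5 and Dmp1 together less than 0.05%. This rule took 324 of 5463 kept barcodes: 143 of 2944 (control), 72 of 1913 (PTH) and 109 of 606 (YKL). They are called hypertrophic cells below.

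All groups were female C3H/HeJ mice, a strain that the submitters describe as slow to heal, which were 9 weeks old when the femur was pinned and broken at midshaft. They then had 1 injection under the skin each day, of phosphate-buffered saline (control), PTH 1-34 at 100 µg/kg (PTH) or YKL-05-099 at 15 mg/kg (YKL). Callus was taken on day 7 away from the marrow and digested with collagenase, and the labels name no transgene. The number of animals behind each library and any pooling are not given in the labels. With 1 library per treatment no difference between treatments has a replicate check, so the ratios below describe these libraries, and their 95% intervals cover counting error only.

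As background, fracture callus first forms cartilage, whose cells stop dividing, enlarge and replace their type II collagen matrix with one rich in type X collagen before vessels and bone move in. Cells that enter this stage secrete Indian hedgehog (Ihh), which raises parathyroid hormone-related protein (Pthlh) in younger cartilage, and that ligand slows maturation through the receptor Pth1r. Injected PTH uses the same receptor, which raises cAMP and switches off the salt-inducible kinases (Sik1, Sik2 and Sik3). These kinases hold CRTC coactivators and class IIa histone deacetylases in the cytoplasm, and YKL-05-099 inhibits them directly.

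The cells carried the markers of the hypertrophic stage. Of the marker genes, Col10a1 was fixed by the rule (chromosome 10, 34389981 to 34397085, plus strand, GRCm38, GENCODE vM21 annotation). The other 4 were Ihh (chromosome 1, 74945315 to 74951672, minus strand), Ibsp (chromosome 5, 104299171 to 104311469, plus strand), Alpl (chromosome 4, 137741733 to 137796384, minus strand) and Pth1r (chromosome 9, 110722085 to 110747145, minus strand). All 4 had a UMI in 135 of 143 control cells (94.4%, exact Clopper-Pearson interval 89.3 to 97.6), 63 of 72 PTH cells (87.5%, 77.6 to 94.1) and 91 of 109 YKL cells (83.5%, 75.2 to 89.9). Col2a1 chondrocytes with 0.05 to 0.5% Col10a1, called intermediate, had all 4 in 45.3%, 53.0% and 64.4%. Chondrocytes below 0.05% had all 4 in 6.48%, 17.8% and 35.3%. These shares were read without bringing cells to equal depth. Median UMIs per cell were 17996, 17100.5 and 32189 in intermediate cells and 17219, 18679 and 30534 below 0.05%, in the order control, PTH, YKL. The part of depth in the shares was not tested. The rule did not use these 4 genes, but it chose the classes from the same cells by Col10a1, so the shares are a description with no test.

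Depth and free RNA differed between the libraries. The hypertrophic cells held 2290909 UMIs (control), 1424217 UMIs (PTH) and 3468136 UMIs (YKL), with medians of 15552, 19352 and 31892 UMIs and 2.12%, 1.88% and 0.773% mitochondrial UMIs per cell. Libraries shared 8, 3 and 2 barcodes in pairs, and no hypertrophic cell was among them. The control library stood apart by haemoglobin: red cell genes summed to 17329 UMIs of every 1000000 (CPM) in its hypertrophic cells against 294 in the PTH and 274 in the YKL cells. In the control, 19 of 143 hypertrophic cells had at least 1% haemoglobin UMIs, up to 62.8% in 1 cell, against 0 and 1 in the treated libraries. Other foreign markers were low: the 8 endothelial genes summed to 18.3, 11.2 and 47.6 CPM, the 8 leukocyte genes to 57.2, 16.9 and 31.7 CPM with Ptprc, Coro1a, Cd52 and Srgn at 0 UMIs in the PTH cells and Cd52 at 0 in the YKL cells, and the 8 neutrophil genes to 207, 7.72 and 21.0 CPM with Elane at 0 in all 3. The 7 osteoblast-lineage markers summed to 6015, 8685 and 8339 CPM. The rule itself caps all of them but Sp7 and Col1a2, so this sum is no check on purity. The 8 fibroblast genes summed to 3722, 4042 and 4054 CPM, the 6 tendon genes to 24.9, 64.6 and 17.0 CPM, the 6 pericyte and smooth muscle genes to 134, 66.7 and 9.80 CPM and the 8 macrophage and osteoclast genes to 40.6, 44.2 and 28.0 CPM. The part of these cells and of haemoglobin in the differences between libraries was not tested.

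The YKL library held the highest share of hypertrophic cells. They made up 28.5% (exact interval 24.1 to 33.3) of its 382 Col2a1 chondrocytes, against 10.7% (8.48 to 13.3) of 672 in the PTH and 9.07% (7.70 to 10.6) of 1576 in the control library. Of all kept barcodes they were 18.0% (15.0 to 21.3), 3.76% (2.96 to 4.72) and 4.86% (4.11 to 5.70) in the order YKL, PTH, control. Intermediate chondrocytes were more frequent in the YKL library too, at 26.4% of Col2a1 chondrocytes against 14.9% (PTH) and 11.5% (control). Chondrocytes below 0.05% Col10a1 made up 36.4%, 70.2% and 77.3% in the same order. Terminal chondrocytes, which pass the same conditions but have 0.05% or more of late genes, numbered 22, 17 and 20. Hypertrophic cells were therefore 83.2% (75.7 to 89.2), 80.9% (71.2 to 88.5) and 87.7% (81.7 to 92.3) of both stages together, and these intervals overlap. Only 1500 barcodes were deposited for YKL against 5286 for PTH and 8021 for the control. Col10a1 was also seen outside cartilage. Endothelial barcodes held a median of 0% in the control and PTH libraries and 0.0201% in the YKL library, with upper quartiles of 0.0119%, 0% and 0.0353%. The highest held 0.111% (control), 0.084% (PTH) and 0.226% (YKL), past the 0.05% that bounds the intermediate class. The part of free RNA and of cell recovery in these shares was not tested.

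Within the hypertrophic cells the control library had the highest Col10a1 content. Col10a1 held a median of 2.26% of UMIs in the control, 1.42% (range 0.506 to 9.41) in the PTH and 1.31% (0.501 to 18.9) in the YKL cells. Cells with 2% or more were 58.0% (49.5 to 66.2) of the control, 33.3% (22.7 to 45.4) of the PTH and 39.4% (30.2 to 49.3) of the YKL cells. Many YKL cells lay just past the threshold, with 42 of 109 between 0.5 and 1%, against 23 of 143 in the control. The cells nearest the threshold held 0.513%, 0.506% and 0.501% inside it and 0.491%, 0.498% and 0.495% outside it. For the late genes the nearest cells held 0.0433%, 0.0473% and 0.0478% inside and 0.0520%, 0.0521% and 0.0556% outside, and 105 of 143, 46 of 72 and 70 of 109 hypertrophic cells had no late gene UMI at all.

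**Figure D1:**
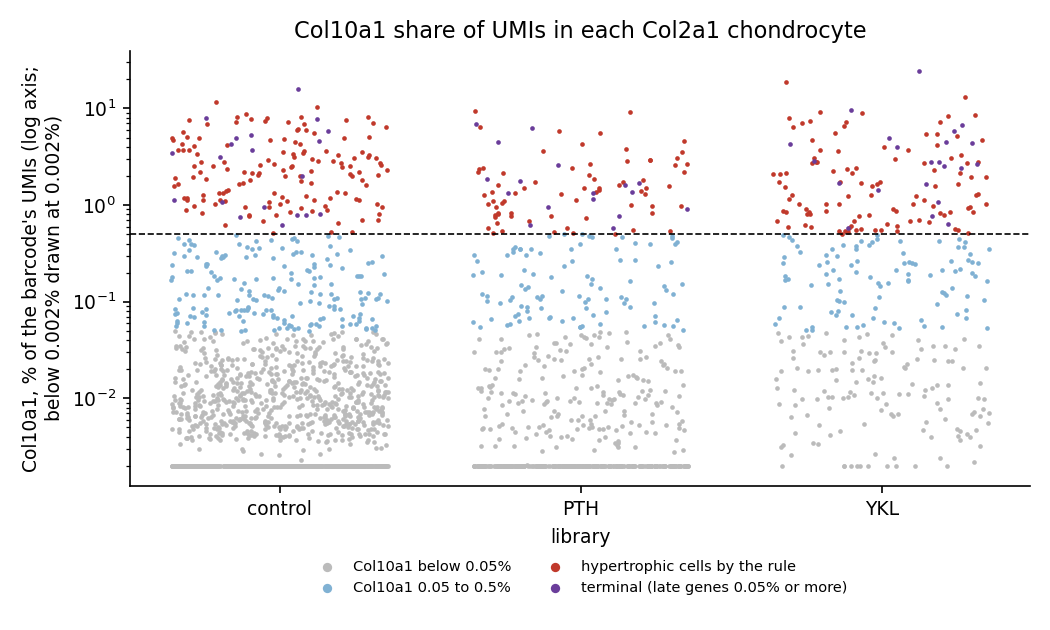
Each point is 1 Col2a1 chondrocyte, with its library on the x axis and the Col10a1 share of its UMIs in percent on the y axis (log axis). The dashed line is the 0.5% threshold, above which lie 143 control, 72 PTH and 109 YKL hypertrophic cells and the 59 terminal cells.

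The signalling genes Ihh and Pth1r stood at nearly the same level in all 3 libraries. Ihh, the hedgehog ligand, had 1090.0 CPM in control cells, 1072 in PTH cells and 1004 in YKL cells, and the quartiles over cells were 464 to 1550.3 CPM in the control cells, 381 to 1475 CPM in the PTH cells, 285 to 1432 CPM in the YKL cells. The ratio of Ihh to the control was 0.983 (0.922 to 1.05) for PTH and 0.921 (0.875 to 0.9704) for YKL. Its UMIs were seen in 75.2, 75.4 and 65.1% of cells thinned to 2000 UMIs each (96.5, 94.4 and 91.7% unthinned), with 6, 3 and 3 cells too shallow to thin. In thinned endothelial barcodes, which should lack Ihh, the shares were 0, 0.364 and 0%. Other hypertrophic markers were seen in more of these barcodes. Col10a1 was in 13.3, 4.36 and 30.6% of them and Ibsp in 7.27, 5.82 and 6.12%. Alpl was in 3.03, 3.64 and 12.2% and Pth1r in 3.03, 2.55 and 2.04%. The part of free RNA in the hypertrophic values was not tested. Pth1r, the receptor for PTH and Pthlh, had 2608 CPM in control cells, 2387 in PTH cells and 2374 in YKL cells, with ratios of 0.915 (0.877 to 0.955) and 0.9104 (0.8805 to 0.941). Its ligand gene Pthlh had 0 UMIs in the hypertrophic cells of each library, so at most 3 UMIs per library are allowed by counting error. Ptch1, the hedgehog receptor that hedgehog signalling itself induces, had 57.2 CPM in control cells, 58.3 in PTH cells and 66.6 in YKL cells, and was lower than in intermediate cells in every library at ratios of 0.4198, 0.497 and 0.605. Of 12 listed genes of the hedgehog and Pthlh loop, 0 of 5 measured passed 1.5-fold in PTH against control, beside 4.40% higher and 8.41% lower of all genes. In YKL against control 1 of 6 was higher (Gli3) and 0 lower, beside 7.08% and 5.82%. Gli3 was also the 1 of 6 that was higher in YKL against PTH, with 0 lower, beside 8.41% and 3.44%.

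Of the genes that prepare the matrix for mineral, Alpl was level and Ibsp was not. Alpl, the tissue-nonspecific alkaline phosphatase, had 1740.4 CPM in control cells, 1673 in PTH cells and 1858 in YKL cells, with quartiles of 1187 to 2386 CPM in the control cells, 1124 to 2143 CPM in the PTH cells, 1206 to 2390.4 CPM in the YKL cells. Ibsp, bone sialoprotein, had 21194 CPM in control cells, 30140.0 in PTH cells and 14156 in YKL cells, so that the PTH value was highest and the YKL value lowest. Ratios of Ibsp were 1.42 (1.404 to 1.44) for PTH against control, 0.668 (0.6596 to 0.676) for YKL against control and 0.4697 (0.464 to 0.476) for YKL against PTH. Quartiles over cells are wider than these counting intervals: those of Ibsp were 8122 to 29904 CPM in the control cells, 4617 to 41220.0 CPM in the PTH cells, 1221 to 22583 CPM in the YKL cells, which overlap between all libraries. Spp1, osteopontin, lies on the same chromosome (chromosome 5, 104435118 to 104441050) and had 3056 CPM in control cells, 2628 in PTH cells and 1489.6 in YKL cells. The median cell had 40.02, 49.6 and 36.9 CPM of Spp1, and the 1 cell with the most held 13.4, 17.6 and 31.05% of its UMIs, so the sums rest on few cells. Among cells with 1% Col10a1 or more, Spp1 stood at a ratio of 0.0853 in YKL against control and 0.485 in PTH against control, in place of 0.487 and 0.8601. Phex, an endopeptidase gene of mineralizing cells, had 97.3 CPM in control cells, 96.2 in PTH cells and 49.3 in YKL cells. Sparc, osteonectin, had 20933 CPM in control cells, 31870.0 in PTH cells and 25325 in YKL cells, a ratio of 1.52 (1.503 to 1.54) for PTH against control, and its quartiles of 12094 to 23589 CPM in the control cells, 19483 to 40054 CPM in the PTH cells, 13871 to 31885 CPM in the YKL cells overlapped as well.

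Across a list of 18 genes of the hypertrophic program that the rule did not use, between 4 and 6 measured members passed 1.5-fold in either direction in each treatment comparison. Ratios were read where both libraries together had 50 UMIs or more of a gene. In PTH against control, 3 of 16 measured members were at least 1.5-fold higher (Runx3, Vegfa and Dlx5) and 1 lower (Sgms2), where 4.40% of all 5865 genes measured were higher and 8.41% lower. The list median was −0.04 on the log2 scale, and that of all genes −0.08. In YKL against control, 4 of 17 were higher (the same 3 genes and Sp7) and 2 lower (Spp1 and Foxa3), beside 7.08% and 5.82% of 7165 genes, with medians of −0.14 and −0.02. In YKL against PTH, 1 of 16 was higher (Sp7) and 3 lower (Ibsp, Spp1 and Foxa3), beside 8.41% and 3.44% of 6625 genes, with medians of −0.02 and 0.07. The PTH and YKL comparisons share their control cells. Genes simulated with no change also passed 1.5-fold in either direction, at 4.89%, 3.50% and 4.82% for the comparisons in the order given here. Each simulated share counts higher and lower genes, whereas the shares of all genes are given for each direction apart. The counts and shares of genes past 1.5-fold are not corrected for the simulated share. Scaled by the median ratio in place of total UMIs, PTH against control had 365 genes higher and 366 lower in place of 258 and 493, and YKL against PTH 439 and 302 in place of 557 and 228.

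Among these, Vegfa, the growth factor that draws vessels into hypertrophic cartilage, had 135 CPM in control cells, 219 in PTH cells and 248 in YKL cells. Its ratio was 1.62 (1.38 to 1.91) for PTH and 1.84 (1.61 to 2.103) for YKL, and 1.13 (0.994 to 1.29) between them. Runx3 and Runx2, transcription factors that drive hypertrophy, had 20.95, 35.1 and 38.6 and 167, 197 and 139 CPM in the order control, PTH, YKL. Sp7, the osteoblast factor osterix, had 38.4 CPM in control cells, 36.5 in PTH cells and 58.5 in YKL cells, and Dlx5, a homeobox factor of skeletal cells, 37.1, 58.3 and 58.8 CPM. Mef2c, a factor that class IIa histone deacetylases restrain, was near level at 1785, 1642 and 1613 CPM. Panx3, a channel of prehypertrophic and hypertrophic cells, was level too at 555, 507 and 485 CPM. Foxa3, a forkhead factor, had 129 CPM in control cells, 128 in PTH cells and 82.2 in YKL cells. Dlx6 and Foxa2 had too few UMIs for most ratios.

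**Figure D2:**
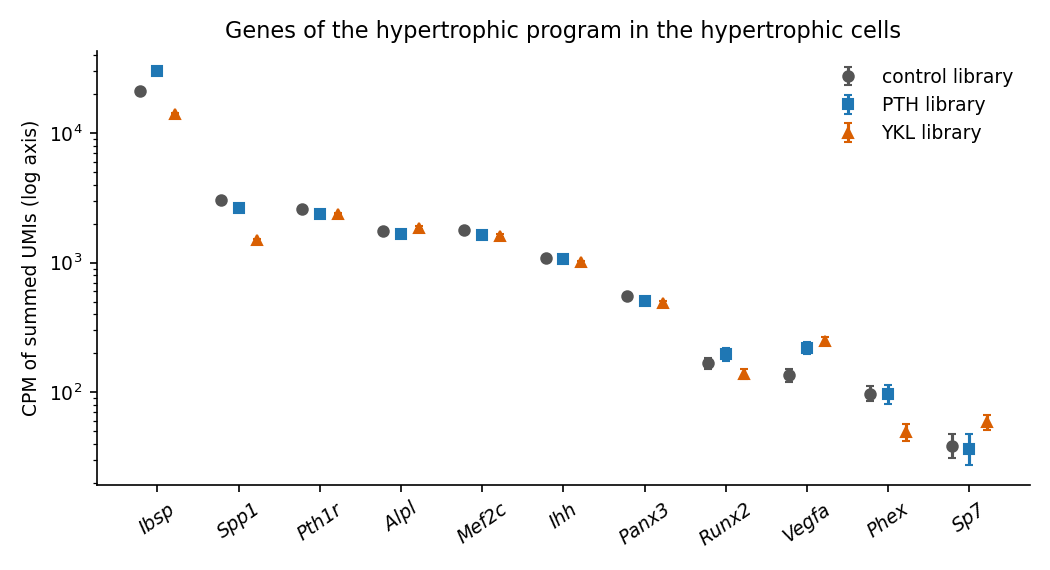
CPM of summed UMIs (log axis) in the hypertrophic cells of each library for 11 genes on the x axis, with bars for 95% counting intervals. Pth1r, Alpl, Mef2c, Ihh and Panx3 lie close together across the 3 libraries, while Ibsp and Spp1 are lowest in the YKL cells and Vegfa is lowest in the control cells.

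Immediate early genes lay higher in both treated libraries than in the control, both in a list of cAMP response genes and in one of genes induced by digestion. Of 22 response genes of the cAMP pathway, 8 of the 10 measured in PTH against control stood 1.5-fold or more above it and none below (list median 1.10), beside the 4.40% of all genes given above. In YKL against control it was 11 of 13 (median 1.28), beside 7.08%. In YKL against PTH 1 of 12 was higher and none lower (median 0.03), beside 8.41% and 3.44% of all genes. Fos, the immediate early transcription factor, had 444 CPM in control cells, 1209 in PTH cells and 1172 in YKL cells, with quartiles of 0 to 379 CPM in the control cells, 101 to 1967 CPM in the PTH cells, 40.2 to 2119.6 CPM in the YKL cells. Ratios of Fos were 2.72 (2.52 to 2.95) for PTH and 2.64 (2.46 to 2.83) for YKL against the control. Atf3, a stress and cAMP response factor, had 74.2 CPM in control cells, 245 in PTH cells and 211 in YKL cells, and Junb, a partner of Fos, 372, 853 and 903 CPM. Dusp1, the phosphatase that ends MAP kinase signals, had 81.2 CPM in control cells, 267 in PTH cells and 245 in YKL cells. For these genes the treated libraries lay within 1.5-fold of each other and the control below both. With the 19 control cells and 1 YKL cell of at least 1% haemoglobin left out, the ratios of Fos were 2.79 and 2.71. With cells down to 0.25% Col10a1 taken in, the ratio of Dusp1 in PTH was 2.16 in place of 3.29 and that of Atf3 in YKL 1.66 in place of 2.84, and with cells thinned to equal depth that of Junb in YKL was 3.78 in place of 2.42.

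Nr4a1, an orphan nuclear receptor and a standard target of CRTC, was the listed gene that passed 1.5-fold between the treated libraries. It had 4.37 CPM in control cells, 9.83 in PTH cells and 41.5 in YKL cells, from 10, 14 and 144 UMIs. The ratio was 9.51 (5.03 to 20.3) for YKL against control, 4.22 (2.44 to 7.92) for YKL against PTH, and 6.02 in YKL against control when cells down to 0.25% Col10a1 were taken in. After thinning to 2000 UMIs it was seen in 1.46, 1.45 and 5.66% of hypertrophic cells and in 7.88, 6.55 and 6.12% of endothelial barcodes, and the hypertrophic share was the lower one in every library at that depth. At 5000 UMIs the YKL shares were 13.9% of hypertrophic cells and 13.5% of endothelial barcodes. Intermediate chondrocytes had 15.6, 36.2 and 76.7 CPM and endothelial barcodes 41.98, 48.7 and 73.7 CPM of Nr4a1 in the order control, PTH, YKL, each above the hypertrophic cells of the same library. The part of free RNA in the few hypertrophic UMIs was not tested. Sik1 itself, also a CREB target, had 2, 3 and 14 UMIs in all, too few for most ratios.

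A list of 16 genes induced by enzymatic digestion or by heat differed in the same way, and Fos and Atf3 belong to both lists. In PTH against control 11 of 14 measured stood 1.5-fold or more above it and none below (median 1.23), beside 4.40% of all genes above. In YKL against control it was 10 of 15 (median 1.27), beside 7.08%. In YKL against PTH 1 of 15 was higher (Hspa1a) and 1 lower (Hspb1), beside 8.41% and 3.44% of all genes. Egr1, an immediate early zinc finger factor, had 119 CPM in control cells, 367 in PTH cells and 394 in YKL cells. Its ratios to the control were 3.08 and 3.31, and 5.78 and 5.76 when each cell counted to equal depth. Btg2, an antiproliferative early gene, had 102, 280.1 and 304 CPM, and Socs3, the cytokine feedback inhibitor, 4.802, 36.5 and 29.99 CPM from few UMIs, with PTH ratios of 4.24 to 14.6 over the settings tried. The chaperone genes Hspa8 and Hsp90aa1 had 856, 929.6 and 947 and 281, 223 and 254 CPM. The median mitochondrial share per cell was 2.12% in control, 1.88% in PTH and 0.773% in YKL cells, so here PTH lay nearer the control than YKL.

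The same genes were read in other cells of the libraries. Intermediate chondrocytes had 950.3, 1733 and 1722 CPM of Fos in the order control, PTH, YKL, and chondrocytes below 0.05% Col10a1 had 1104, 1775 and 2335 CPM. Endothelial barcodes had 357, 910.4 and 888 CPM of Fos, 335, 459.6 and 537 of Junb, 159.8, 219 and 189 of Egr1 and 286, 283 and 329 of Dusp1. Fos was thus lowest in the control in each class, whereas Dusp1 in endothelial barcodes was nearly level. Of the cAMP list, 7 of 15 genes measured in endothelial barcodes were at least 1.5-fold higher in PTH than in control (8.85% of all genes) and 7 of 12 in YKL (11.9%), with medians of 0.46 and 0.75. In each of these comparisons 1 listed gene was lower, beside 3.29% (PTH) and 5.86% (YKL) of all genes. In intermediate chondrocytes the counts of higher genes were 9 of 12 (7.55% of all genes) and 10 of 13 (5.82%), with medians of 0.71 and 0.80. In chondrocytes below 0.05% Col10a1, 6 of 20 listed cAMP genes were higher and 2 lower in PTH, beside 6.44% higher and 3.76% lower of all genes. In YKL 13 of them were higher and 2 lower, beside 7.54% and 10.0%. For the digestion list the endothelial counts of higher genes were 5 of 15 and 4 of 14, with medians of 0.33 and 0.26. The intermediate counts of higher genes were 7 of 15 in both, with medians of 0.57 and 0.51. Below 0.05% Col10a1, 3 of 16 digestion genes were higher and 2 lower in PTH (median 0.11). In YKL 8 of 16 were higher and none lower (median 0.58). The shares of all genes beside these counts are those given above for this class. In the control, hypertrophic cells had less Fos than intermediate cells, at a ratio of 0.467, against 0.698 in PTH and 0.681 in YKL. The part of tissue digestion, of depth and of the mitochondrial share in these differences was not tested.

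**Figure D3:**
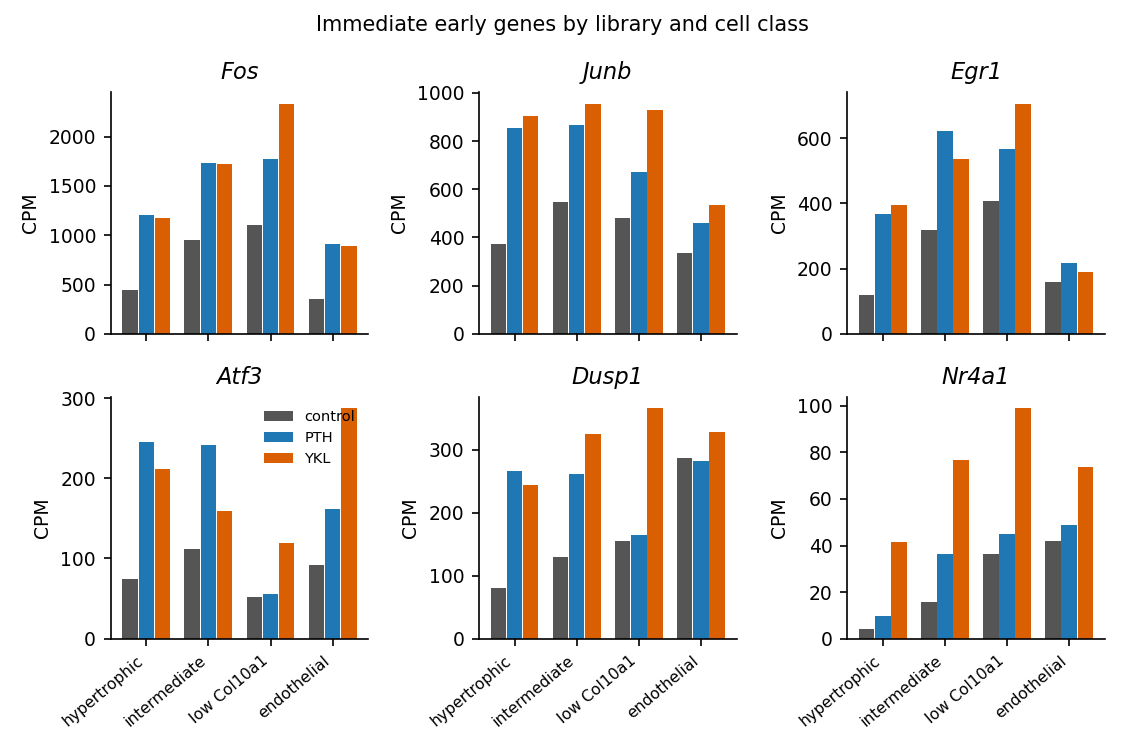
Bars give CPM (y axis, from 0) of 6 immediate early genes in hypertrophic cells, intermediate chondrocytes, chondrocytes below 0.05% Col10a1 and endothelial barcodes, coloured by library. In the hypertrophic cells the control bar is the lowest for each gene, and Nr4a1 is highest in the YKL library in all 4 classes.

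CREB acts through the cAMP response element, whose short form is TGACG and whose full palindrome is TGACGTCA. Both were searched on both strands in the 250 bases before each RefSeq transcription start (RefSeq, GRCm38.p6), and each full site also counts as a short site on both strands. At least 1 short site was present in 17.8% of 32851 windows and a full site in 1.55%. Of the 19 listed cAMP genes with a window, 14 (73.7%) had a short site in some window and 2 a full site, against 19.8% and 1.77% of all 27025 genes. Of the 14 hypertrophic program genes with a window, 6 (42.9%) had a short site and none a full site. These matches describe letters and are not shown to be bound. The cAMP list was made of genes taken as CREB and CRTC response genes, so its share of sites is no result about these cells. Sequence before the start is printed for 3 genes that differed between libraries, on the strand of the gene, with the sites in capitals.

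Dusp1, 200 bases, chr17:26508523-26508722, minus strand, 3 short sites of which 2 form 1 full site; the 50 bases nearest the start are left out:
Dusp1: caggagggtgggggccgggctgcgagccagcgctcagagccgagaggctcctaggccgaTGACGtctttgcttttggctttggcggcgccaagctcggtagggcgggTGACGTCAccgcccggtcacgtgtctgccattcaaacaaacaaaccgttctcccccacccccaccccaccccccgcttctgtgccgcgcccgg
Fos, 250 bases, chr12:85473640-85473889, plus strand, 2 short sites:
Fos: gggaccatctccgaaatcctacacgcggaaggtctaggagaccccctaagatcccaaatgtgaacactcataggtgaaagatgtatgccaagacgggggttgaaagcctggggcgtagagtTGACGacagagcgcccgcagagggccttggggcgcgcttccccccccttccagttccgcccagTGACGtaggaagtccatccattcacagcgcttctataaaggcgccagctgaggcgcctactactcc
Nr4a1, 250 bases, chr15:101266596-101266845, plus strand, 4 short sites, all on the opposite strand and so read as CGTCA here:
Nr4a1: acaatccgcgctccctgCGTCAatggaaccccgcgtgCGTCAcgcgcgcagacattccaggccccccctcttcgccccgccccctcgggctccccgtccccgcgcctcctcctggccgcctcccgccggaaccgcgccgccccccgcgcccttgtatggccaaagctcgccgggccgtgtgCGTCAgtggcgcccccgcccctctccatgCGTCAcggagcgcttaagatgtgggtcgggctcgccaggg

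The Nr4a1 and Dusp1 windows lie inside the full annotated spans of their genes (chromosome 15, 101254269 to 101274795, and chromosome 17, 26505590 to 26562128), which have starts further upstream. The ratios of YKL to control cells for these genes were 3.02 for Dusp1, 2.64 for Fos and 9.51 for Nr4a1. The part of the sites in these ratios was not tested.

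Of the 19 listed components of the kinase pathway itself, 0 of 11 measured in PTH against control were at least 1.5-fold higher and 1 lower (Crtc3), beside 4.40% and 8.41% of all genes, with a median of −0.12. In YKL against control it was 0 of 12 higher and 1 lower (Creb1, the factor CREB), beside 7.08% and 5.82%, with a median of 0.02. Sik3 had 27.9 CPM in control cells, 25.98 in PTH cells and 31.4 in YKL cells and Sik2 4.37, 3.51 and 6.34 CPM, and Gnas, the stimulatory G protein subunit below Pth1r, 1619, 1608 and 1912 CPM.

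In PTH against control, the rule for named genes gave first Tmem119, a membrane protein of bone cells, and Fxyd2, a small membrane protein of the FXYD family. Tmem119 had 3.06 CPM in control cells, 65.3 in PTH cells and 35.8 in YKL cells and Fxyd2 10.5, 98.3 and 36.6 CPM. One cell held 42.9, 33.3 and 23.4% of the Tmem119 and 45.8, 35.7 and 33.9% of the Fxyd2 UMIs in the order control, PTH, YKL, so both rest on few cells. The ratio of Tmem119 was 21.4, or 50.2 without the 10% of cells with the most UMIs, and that of Fxyd2 9.38, or 23.8 among cells of 1% Col10a1 or more and 16.1 without cells of high haemoglobin. S100a4, a calcium-binding protein, had 61.1 CPM in control cells, 194 in PTH cells and 70.9 in YKL cells, with 1 PTH cell holding 30.8% of its UMIs. Its ratio was 3.17, or 2.102 without the 10% of cells with the most UMIs. Cthrc1, a secreted protein of matrix-producing cells, had 14.4, 54.1 and 45.6 CPM, with PTH ratios of 3.75, or 5.71 among cells of 1% Col10a1 or more.

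Lower in PTH than in control were Fabp5, Slpi, Ucma, Lxn, Tspan13, Slc38a4 and Mest. Slpi, a secreted inhibitor of leukocyte proteases, had 2002 CPM in control cells, 818 in PTH cells and 779 in YKL cells, with ratios of 0.409 (0.383 to 0.436) for PTH and 0.389 (0.371 to 0.408) for YKL. Ucma, a secreted protein of immature cartilage, had 560.0 CPM in control cells, 226 in PTH cells and 170.4 in YKL cells, with ratios of 0.404 (0.356 to 0.457) and 0.304 (0.276 to 0.336). It was 0.640 for PTH when cells down to 0.25% Col10a1 were taken in. Both genes were thus lower in the cells of both treated libraries. Lxn, a carboxypeptidase inhibitor, had 447, 187 and 286 CPM, and Fabp5, a fatty acid-binding protein, 111, 30.2 and 50.5 CPM. The amino acid transporter gene Slc38a4 had 108, 47.7 and 82.8 CPM, the tetraspanin gene Tspan13 81.6, 31.6 and 49.9 and the imprinted gene Mest 54.1, 21.8 and 15.9. The PTH ratio of Mest was 0.849 in place of 0.402 with cells down to 0.25% Col10a1.

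In YKL against control the named genes were Hk2, Nrn1, Egr1, Errfi1, Sgk1, Rnaset2a and Btg2 on the higher side. Hk2, a hexokinase that starts glycolysis, had 22.3 CPM in control cells, 65.3 in PTH cells and 109 in YKL cells, a ratio of 4.88 (3.64 to 6.68) that was 3.06 with cells down to 0.25% Col10a1. Of 18 measured genes of hypoxia and glycolysis, 3 were at least 1.5-fold higher (Eno1, Hk2 and Vegfa) and none lower, beside 7.08% and 5.82% of all genes, with a list median of 0.31. Errfi1, a feedback inhibitor of the EGF receptor, had 22.3, 43.5 and 83.04 CPM (YKL ratio 3.73, or 2.45 with cells down to 0.25% Col10a1), and Sgk1, a serum- and glucocorticoid-induced kinase, 34.05, 81.4 and 119 CPM. Nrn1, a membrane-anchored neurite protein, had 22.3, 73.02 and 100.3 CPM. Rnaset2a, a ribonuclease, had 29.7, 33.7 and 106 CPM, and it differed in the same way outside cartilage, with 21.4, 21.6 and 77.5 CPM in endothelial barcodes.

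Lower in YKL than in control were Igfbp5, Cytl1, Ucma, Mest, Slpi, Lbp, Spp1 and Plxnb2. Cytl1, a cytokine-like protein of cartilage, had 145 CPM in control cells, 81.4 in PTH cells and 28.8 in YKL cells, with a ratio of 0.199 (0.157 to 0.2495). Its top cell held 20.8, 49.1 and 20% of the UMIs. Igfbp5, an insulin-like growth factor-binding protein, had 57.6, 87.8 and 6.92 CPM, but 1 cell held 79.5% of its control and 76% of its PTH UMIs. Plxnb2, a semaphorin receptor, had 75.5, 36.5 and 29.99 CPM, and Lbp, the lipopolysaccharide-binding protein, 67.7, 35.8 and 22.5 CPM.

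YKL and PTH cells were then set against each other. Higher in YKL were Rnaset2a, Prelp, Commd7, Ppa1, Phpt1 and AW112010. The ratio of Commd7 to PTH was 1.13 in place of 2.33 without the 10% of cells with the most UMIs. Prelp, a leucine-rich proteoglycan, had 197 CPM in control cells, 127 in PTH cells and 274 in YKL cells, and Ppa1, an inorganic pyrophosphatase, 468, 326 and 593 CPM, a ratio of 1.82 (1.64 to 2.01). Lower in YKL were Igfbp5, Cacna2d1, R3hdml, Penk, Serpine2, S100a4, Cytl1 and Ibsp. Serpine2, a protease inhibitor of the matrix, had 238 CPM in control cells, 411 in PTH cells and 158 in YKL cells, and 1 cell held at most 9.73% of its UMIs. Cacna2d1, a calcium channel subunit, had 19.6, 51.3 and 4.33 CPM, R3hdml 40.2, 51.3 and 5.48 CPM (YKL to PTH ratio 0.107, or 0.247 with cells down to 0.25% Col10a1) and Penk, proenkephalin, 21.4, 55.5 and 16.1 CPM. Of 12 measured mineralization genes, 5 were at least 1.5-fold lower in YKL than in PTH (Enpp1, Slc20a1, Ibsp, Spp1 and Phex) and none higher, beside 3.44% lower and 8.41% higher of all genes, with a median of −0.13. Among cells of 1% Col10a1 or more, Enpp1, which makes the mineral inhibitor pyrophosphate, stood at 0.794 in place of 0.513. Against the control, 0 of 11 mineralization genes passed in PTH (4.40% of all genes were higher and 8.41% lower), and 3 of 11 were lower and none higher in YKL (Enpp1, Spp1 and Phex), beside 5.82% and 7.08%.

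The list medians of cartilage matrix genes were close to 0 between the treatments. In PTH against control 0 of 19 measured were at least 1.5-fold higher and 3 lower (Ucma, Epyc and Prelp), beside 4.40% and 8.41% of all genes, and in YKL against control 0 were higher and 1 lower (Ucma), beside 7.08% and 5.82%, with medians of −0.07 in both. In YKL against PTH 3 of 19 were higher (Matn1, Epyc and Prelp) and none lower, beside 8.41% and 3.44%, with a median of 0.02. The PTH ratio of Epyc was 0.961 in place of 0.596 among cells of 1% Col10a1 or more. Acan, aggrecan, had 8151 CPM in control cells, 7953 in PTH cells and 7785 in YKL cells. Of 20 secretory folding genes 2 were at least 1.5-fold higher in PTH than in control (Ddit3 and Creb3l1) and 1 in YKL (Sdf2l1), and none lower. Of 15 nuclear genes of oxidative phosphorylation none passed 1.5-fold in either comparison with the control. The BMP and TGF-beta list had 3 of 17 higher and 3 lower in PTH and 3 of 19 higher and 2 lower in YKL. Beside these 3 lists stand 4.40% higher and 8.41% lower of all genes in PTH, and 7.08% and 5.82% in YKL. Bmp2, the bone morphogenetic protein, was among the higher genes in both, at 53.3, 91.3 and 98.9 CPM, and Tgfb2 among the lower, at 73.3, 36.5 and 48.7 CPM. The insulin-like growth factor list had 4 of 9 higher and 1 lower in PTH, and 3 of 10 higher and 3 lower in YKL, beside the same shares of all genes. Of its members, Irs2 and Igfbp6 were at least 1.5-fold higher and Igfbp4 lower in both. Igfbp7 was higher in PTH, Igfbp3 higher and Igf2r lower in YKL, and Igfbp5, which rests on 1 cell as given above, higher in PTH and lower in YKL. Igfbp4 had 28.8, 17.6 and 6.92 CPM. With cells down to 0.25% Col10a1, the PTH ratio of Igfbp4 was 0.941 in place of 0.609 and the YKL ratio of Igfbp6 1.07 in place of 2.19.

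The hypertrophic cells varied with their own Col10a1 content. Ihh had 827, 1069 and 1185 CPM in control cells of 0.5 to 1%, 1 to 2% and 2% or more Col10a1, 716, 1274 and 1208 in PTH cells and 629, 1091 and 1375 in YKL cells. Ihh was lowest in the lowest level in each library. Vegfa had 46.2, 148 and 157 CPM in the control, 138, 272 and 244 in the PTH and 177, 255 and 325 in the YKL cells, also lowest in the lowest level. Aldh1a3, which makes retinoic acid, had 435, 637 and 910.3 CPM in the control, 582, 1285 and 1441 in PTH and 262, 329.8 and 1183 in YKL, again lowest in the lowest level. Alpl and Pth1r varied less, with 1844, 1872 and 1866 CPM of Alpl and 2164, 2325 and 2645 of Pth1r in the YKL cells. Ibsp was ordered by level in the control alone, with 7924, 18503 and 26775 CPM there, 31543, 20235 and 37339 in PTH and 12598, 10914 and 18015 in YKL. Sgms2, a sphingomyelin synthase, was highest in the lowest level, with 1151, 371 and 463 CPM in the control, 509.8, 193 and 277 in PTH and 562, 268 and 313 in YKL. Fos was lowest in the control cells at each level: the control had 477, 374 and 467 CPM, the PTH cells 1481, 1157 and 1017 and the YKL cells 1401, 1225 and 879.

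**Figure D4:**
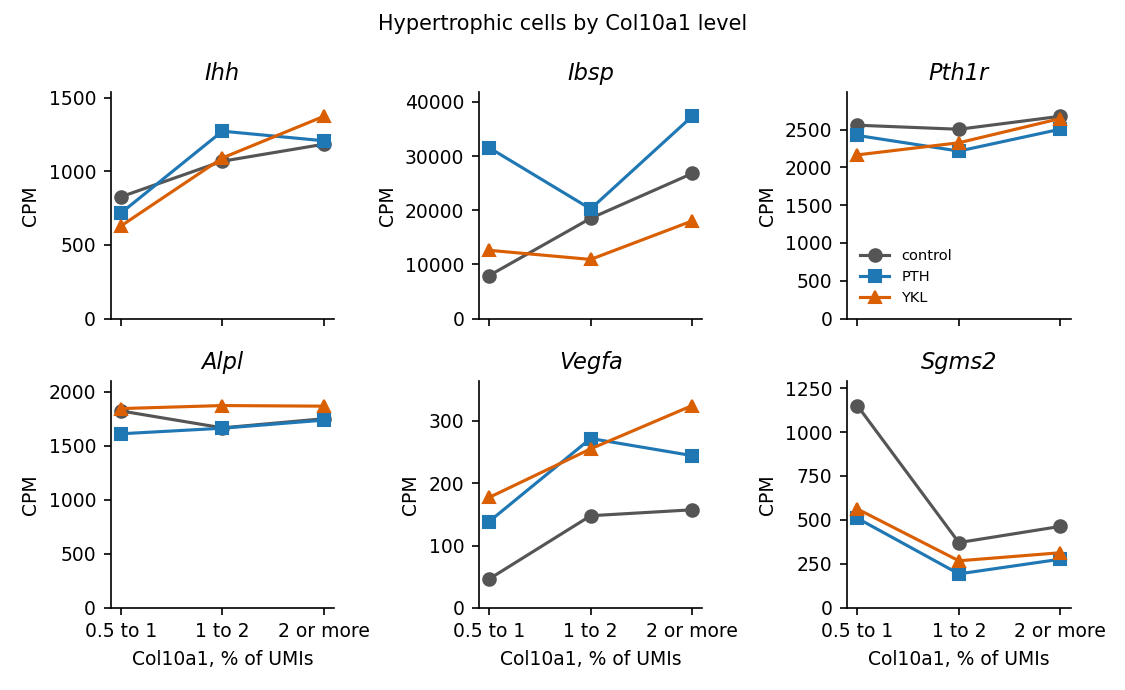
CPM (y axis, from 0) of 6 genes in hypertrophic cells by their Col10a1 share of UMIs in percent (x axis, 3 levels), 1 line per library. Ihh and Vegfa are lowest at 0.5 to 1% in every library, Sgms2 is highest there, and Alpl and Pth1r vary less.

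Some genes differed between hypertrophic and intermediate chondrocytes in every library. Because Col10a1 chose both classes, these ratios are a description with no test, and nothing is read from the counts. A gene was counted when it was at least 1.5-fold different in the same direction in all 3 libraries, which held for 2.08% (higher) and 3.07% (lower) of 5436 genes, or 113 and 167, and for 137 and 130 when scaled by the median ratio. Aldh1a3 was 6.82, 3.78 and 4.58 times its intermediate level in control, PTH and YKL, and the Iroquois homeobox factor Irx5 7.499, 3.85 and 5.75 times. Loxl4, a lysyl oxidase that crosslinks collagen, stood at 7.74, 2.69 and 6.21, and Depp1, a FOXO target linked to autophagy, at 6.74, 3.304 and 4.15. The other named genes were Ddit4l, an mTOR inhibitor, at 4.74, 3.36 and 3.09, the guanosine monophosphate reductase gene Gmpr at 5.67, 3.84 and 3.33, the kinase gene Wnk4 at 4.97, 3.32 and 3.81, Ptges3l at 4.13, 3.84 and 4.12 and Phex at 4.15, 3.09 and 3.56. Of the hypertrophic program, Ihh (4.37, 1.78 and 2.66), Ibsp (3.98, 3.99 and 2.72), Spp1 and Runx2 passed in all 3, while Alpl (1.83, 1.23 and 1.13) and Pth1r (1.603, 1.47 and 1.24) did not.

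Lower than in intermediate cells were the metallothioneins, which bind zinc and copper, and several matrix and cytoskeletal genes. Mt2 stood at 0.0827, 0.05097 and 0.105 and Mt1 at 0.181, 0.137 and 0.2303 of the intermediate level in control, PTH and YKL. Vim, the filament protein vimentin, stood at 0.267, 0.351 and 0.325, and Omd, the keratan sulphate proteoglycan osteomodulin, at 0.312, 0.352 and 0.244. Chrdl2, a BMP antagonist, stood at 0.202, 0.277 and 0.352 and the actin-bundling gene Espn at 0.303, 0.124 and 0.332, the latter with 1 cell holding 65.4, 52 and 32.4% of its UMIs. Fibin, Fndc1, Lsp1 and H2-DMa made up the named genes. Glycolysis and hypoxia genes had a list median of −0.46, with 2 of 18 lower in all libraries (Gapdh and Car9). Secretory folding genes had a list median of −0.42, with 2 of 20 lower (Hsp90b1 and Creb3l2). None of either list was higher, beside 3.07% lower and 2.08% higher of all genes. The median over all genes was −0.03 (control), −0.13 (PTH) and −0.04 (YKL).

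Against terminal chondrocytes, again as a description, many cartilage matrix genes were higher in the hypertrophic cells. Of 19 measured cartilage matrix genes 11 were at least 1.5-fold higher in hypertrophic cells in all 3 libraries and none lower, beside 9.17% and 1.98% of 3391 genes, or 311 and 67 (250 and 101 when scaled by the median ratio). The list median was 1.66, and that of all genes 0.13 (control), −0.03 (PTH) and 0.15 (YKL). They included the type IX collagen genes Col9a1, Col9a2 and Col9a3, the type XI genes Col11a1 and Col11a2, Hapln1 and Matn3. Matn3, matrilin, had 1557, 1374 and 1443 CPM in hypertrophic and 220.4, 55.9 and 338 CPM in terminal cells. Cdkn1c, the cell cycle inhibitor p57 of postmitotic chondrocytes, had 1145, 1489 and 1100.0 CPM against 216, 55.9 and 179 CPM. Thbs1, thrombospondin, stood at 18.6, 13.8 and 4.81 times the terminal level, the noncoding RNA Meg3 at 21.4, 37.9 and 6.93, the carbonic anhydrase Car12 at 22.3, 29.9 and 6.01 and Sgms2 at 14.7, 15.1 and 4.21. Slc13a5, a citrate transporter, had 0 UMIs in the terminal PTH cells and was at least 8.44-fold higher there against a floor of 3 counts.

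Mgp, the matrix Gla protein that inhibits mineral, was the gene named first as lower than in terminal cells, with 1856, 1722 and 1763 CPM against 12124, 12322 and 19766 CPM. Rbp4, the retinol carrier, had 3376, 5187 and 4143 CPM against 11030.0, 18466 and 11605. Spp1 had 3056, 2628 and 1489.6 CPM against 16456, 5331 and 7630.4, and Vegfa 135, 219 and 248 against 279.8, 426 and 456. Fgfr1, a fibroblast growth factor receptor, had 261, 223 and 242 CPM against 666, 615 and 542. Fgfr1 was at least 1.5-fold higher than in intermediate cells, so its level was ordered intermediate, hypertrophic, terminal in each library. Ihh was not lower in terminal cells, with hypertrophic to terminal ratios of 0.846, 0.9697 and 0.681. The terminal class holds only 20, 17 and 22 cells.

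The hypertrophic cells were last set against chondrocytes below 0.05% Col10a1, again as a description. Of 17 measured program genes, 8 were at least 1.5-fold higher in hypertrophic cells in all 3 libraries and 1 lower (Dlx6), beside 6.22% and 8.31% of 8010 genes. The 8 were Ihh, Ibsp, Alpl, Pth1r, Spp1, Mef2c, Runx2 and Foxa3. Pth1r stood at 3.89, 3.01 and 1.78 times the level of these cells in control, PTH and YKL, and Ihh at 33.2, 14.5 and 6.27 times. The BMP and TGF-beta list had 5 of 19 higher (Bmp2, Bmp6, Gdf5, Nog and Tgfb3) and 4 lower (Gdf10, Tgfbr2, Tgfbi and Inhba), with a median of −0.41. The insulin-like growth factor list had 1 of 11 higher (Irs2, an adaptor of insulin signalling) and 4 lower (Igf1, Igfbp4, Igfbp7 and Irs1), with a median of −0.96. The shares of all genes beside both lists are the 6.22% and 8.31% given above.

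**Figure D5:**
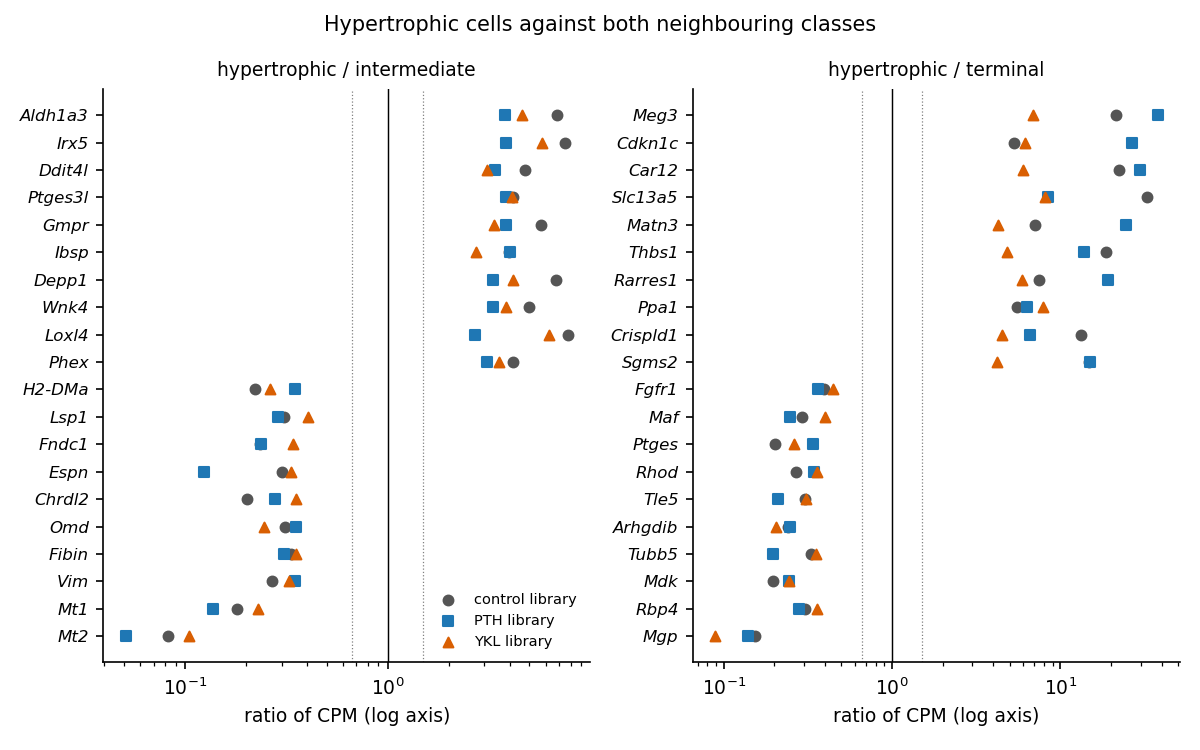
Ratios of CPM (log axis) of hypertrophic to intermediate (left) and to terminal chondrocytes (right) for the named genes, 1 point per library, with dotted lines at 1.5-fold either way. In each panel the points of the 3 libraries lie on the same side of 1 for every gene shown, as the naming rule requires.

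Transcripts of dividing cells were scarce in the hypertrophic cells. The 20 genes of G2 and M phase summed to 55 UMIs in control, 20 in PTH and 68 in YKL cells, or 24.0, 14.0 and 19.6 CPM. In intermediate chondrocytes they summed to 146, 104 and 96.8 CPM. None of the 20 reached 50 UMIs for a ratio between treatments. The 14 S phase genes summed to 158, 171 and 179 CPM in hypertrophic cells against 146, 195 and 185 CPM in intermediate cells.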

How the data were processed

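The authors deposited whole-number UMI counts per gene and barcode, 1 matrix for each of the 3 libraries, with 32285 gene rows each. Per the file headers the tool was Cell Ranger 4.0.0, and the submitters' processing notes name Cell Ranger, Seurat and the mm10 build, with no role for each. The lowest barcode total was 500 UMIs in every library, so a cut was made before deposit. Libraries held 55250651 UMIs in the control, 33981167 in PTH and 19424073 in YKL.

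Members and gene lists were chosen with earlier results of these data known. Cells were classed by the shares of UMIs given in the text, with endothelial barcodes taken as other kept barcodes with 0.1% or more of UMIs in Cdh5, Pecam1, Emcn and Egfl7. No doublets were called or removed. UMIs were summed over the cells of a class and divided by the class total (CPM). Ratios between sums carry exact binomial 95% intervals and need 50 UMIs over both sums. Genes that chose the cells were left out of the lists. A median of a list against another class of chondrocytes is over genes, of each gene's median over the 3 libraries. Shares of cells were also read after thinning each cell to 2000 UMIs. With 1 library per group no test between treatments was made. Named genes were the hypertrophic markers and program, up to 8 genes per direction and treatment comparison by the interval bound farthest from 1 among genes of at least 50 CPM, 10 per direction against intermediate and terminal cells by the least extreme bound, and up to 4 per list, without mitochondrial, ribosomal, predicted, haemoglobin and other cell types' marker genes. Some genes that this rule names are not reported here. The share of UMIs in the top cell is given where 1 cell held much of a gene. Alternatives changed the barcode filter, the Col10a1, Col2a1 and late gene thresholds, thinning, scaling, the UMI minimum and the fold. The code was tested on simulated counts. Of the genes simulated with no change, 4.89% still passed 1.5-fold in either direction when PTH was set over control. The share was 3.50% for YKL over control and 4.82% for YKL over PTH. The shares of all genes past 1.5-fold in the text are given for each direction apart and are not corrected for this. Python 3.11.15, numpy 2.4.6, pandas 2.3.3, scipy 1.17.1 and matplotlib 3.10.9 were used.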

Additional observations from a re-analysis of the deposited data

Results flagged for a closer look

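For 4 named genes the hypertrophic cells lay above the intermediate chondrocytes of the same library in 1 treatment and below them in another, with intervals apart from 1 on both sides; the differences were not tested. AW112010, an interferon-response RNA, stood at ratios of 0.610 (control), 2.29 (PTH) and 5.64 (YKL), and 1 YKL cell held 40% of its UMIs. Cthrc1 stood at 0.378 (control), 0.508 (PTH) and 1.82 (YKL), with 1 cell holding 27.3, 16.9 and 25.9% of its UMIs in that order. S100a4 stood at 2.04 (PTH) and 0.427 (YKL), with 1 cell holding 30.8% of the PTH and 12.6% of the YKL UMIs. Tmem119 stood at 0.181 (control), 1.96 (PTH) and 1.93 (YKL), with 1 cell holding 42.9, 33.3 and 23.4% of its UMIs. The part of single cells of mixed content in these values was not tested.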

How the results depend on the processing

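No paired analysis was possible because each treatment has 1 library and the labels give no replicate numbers. YKL had the highest hypertrophic share under all settings tried, while the order of PTH and control differed between settings. Of kept barcodes the shares of control, PTH and YKL were 6.25%, 5.33% and 23.4% with Col10a1 at 0.25% or more, and 4.08%, 2.56% and 11.1% at 1% or more. Of Col2a1 chondrocytes they were 11.7%, 15.2% and 37.2%, and 7.61%, 7.29% and 17.5%. With Col2a1 at 2% or more, the control share of kept barcodes was 4.01% in place of 4.86%. With at most 5% mitochondrial UMIs, the PTH share of kept barcodes was 6.30% in place of 3.76%, and the YKL share 21.5% in place of 18.0%. Counts of genes at least 1.5-fold apart depended on counting depth. With each cell thinned to 2000 UMIs, PTH against control had 74 higher and 84 lower, YKL against control 127 and 112, YKL against PTH 62 and 54, hypertrophic against intermediate 18 and 25 and against terminal 46 and 9. A minimum of 20 UMIs gave 603 and 1100, 995 and 834, 1201 and 552, and 177 and 267, with 133 lower than in terminal cells. A minimum of 200 UMIs gave 65 and 70, 167 and 89, 83 and 54, 46 and 63, and 143 and 26. A 2-fold call gave 72 and 95, 138 and 77, 127 and 46, 44 and 43, and 129 and 22. Scaling by the median ratio gave 101 lower than in terminal cells. The unaltered counts were 258 and 493, 507 and 417, 557 and 228, 113 and 167, and 311 and 67 in the same order. Thinned to 5000 UMIs, cells with a UMI were 90.8%, 94.0% and 85.1% for Ihh in control, PTH and YKL, 100%, 97.0% and 97.0% for Pth1r, 99.2%, 98.5% and 96.0% for Alpl, and for Nr4a1 0% in the control and 13.9% in YKL (13.5% of YKL endothelial barcodes). Ratios of single genes were counted once for each setting: 9368 kept within the main interval, 1148 moved outside it and 8 turned over. Only main ratios past 1.5-fold could count as turned over, so ratios nearer 1 that crossed it are not among the 8. In PTH against control Mt1 became 1.01 with Col10a1 at 0.25% and 1.85 without the 10% of cells with the most UMIs, and Htra1 0.858 with Col10a1 at 1%. In YKL against control Chrdl2 became 0.917 at 1%. In YKL against PTH Adamts1 became 0.981 and Mt1 0.900 at 0.25%, Igf2 0.878 at 1% and Car12 0.821 when thinned. For all of these the cause was not tested. Leaving out cells of at least 1% haemoglobin, a setting chosen after seeing the data, kept 124, 72 and 108 cells and gave 214 and 533 genes for PTH and 467 and 460 for YKL against control.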

Other observations

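Beside the counts below stand 4.40% higher and 8.41% lower of all genes in PTH against control, and 7.08% and 5.82% in YKL against control. Of 12 genes of bone matrix and osteoblasts, Sparc was at least 1.5-fold higher and Fam20c, a kinase of secreted proteins, lower among 6 measured in PTH against control, and Fam20c was lower among 7 in YKL against control. Of skeletal transcription factors, Runx3 and Dlx5 were higher of 16 in PTH, and these with Sp7 higher and Foxa3 lower of 17 in YKL. Sox9, the master factor of cartilage, had 708 CPM in control cells, 724 in PTH cells and 932 in YKL cells. Of vessel and osteoclast ligands, Vegfa and Ccn1 were higher in both treatments and Nrp1, a coreceptor of Vegfa, lower in both, among 5 measured, and Vegfb was lower in YKL. Of matrix proteases and inhibitors Htra1 was higher in both among 8 (its PTH ratio was 0.858 among cells of 1% Col10a1 or more), and Mmp2 and Timp1 were lower in YKL. Wnt5a, a noncanonical WNT ligand, was lower in both among 6 measured WNT genes, and Wif1 higher in PTH. None of the 3 measured FGF genes passed 1.5-fold between treatment and control. Of 13 measured survival and autophagy genes, 1 was lower in PTH (Bbc3) and 1 in YKL (Bcl2). Of 4 or fewer measured S phase genes none passed 1.5-fold. Of 10 RNA quality genes, 6 mitochondrial transcripts were lower in YKL than in either other library, with a list median of −0.72 against the control. Of all genes, 3.44% were lower in YKL than in PTH.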
